A study of Homo sapiens with 6 samples.

Results

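The genes described here encode the proteins of the cytosolic ribosome. They were taken by symbol, as RPSA, RPLP0, RPLP1, RPLP2 and every RPL or RPS gene with a number and at most a short A, X or L ending, leaving out RPS27L. The rule gave 83 of the 20332 genes listed, 52 of the large subunit and 31 of the small subunit. RNA-seq was made from LX-2, an established line of human hepatic stellate cells, the liver cells that turn into matrix-producing myofibroblasts in fibrosis. The 3 libraries of the treated group came from cells given TGF-β1 and 10 µM of compound 11, which the series title places among myrsinane diterpenoids of Euphorbia prolifera, and the 3 control libraries from cells given TGF-β1 and DMSO, the solvent. Treatment lasted 48 h, so all 6 libraries carry the fibrogenic cytokine and no group without it was analysed here. No label says that the replicates of a group were grown apart, and the p-values therefore reflect the spread between these libraries, which may be technical.

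The cytosolic ribosome joins a small subunit, which reads the mRNA, to a large subunit, which forms peptide bonds and passes the new chain through an exit tunnel. Nearly all of its proteins are present in a single copy per ribosome, except those of the acidic stalk, and their genes are among the most strongly expressed of any growing cell. Most of their mRNAs begin with a C followed by a run of pyrimidines, the terminal oligopyrimidine or TOP tract, through which mTOR and the RNA-binding protein LARP1 set how much of the mRNA is translated. A few proteins have a paralog, a second gene whose product can take the same place in the ribosome.

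The starts of genes that passed the test in either direction, and of a paralog pair, are shown for the TOP tract that most of them carry. Each sequence runs from 15 bases before the annotated start through the first 15 bases of the transcript on the sense strand (RefSeq, GRCh38.p14), and capitals mark a run of a C followed by 4 or more bases that are each C or T, where it begins within 10 bases of that start; runs that begin farther off are left in lower case. RPL13 has 3 listed starts, of which one with the tract is shown, and RPL26L1 has 2.
RPS26, chr12:56041903-56041932, plus strand: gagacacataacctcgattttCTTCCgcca
RPSA, chr3:39406705-39406734, plus strand: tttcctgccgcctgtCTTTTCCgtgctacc
RPLP0, chr12:120201097-120201126, minus strand: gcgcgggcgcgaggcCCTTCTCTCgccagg
RPL35, chr9:124861943-124861972, minus strand: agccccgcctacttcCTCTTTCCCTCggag
RPL24, chr3:101686704-101686733, minus strand: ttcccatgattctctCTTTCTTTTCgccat
RPL12, chr9:127451392-127451421, minus strand: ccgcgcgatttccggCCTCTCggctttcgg
RPL13, chr16:89560667-89560696, plus strand: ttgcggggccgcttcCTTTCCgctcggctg
RPL31, chr2:101002274-101002303, plus strand: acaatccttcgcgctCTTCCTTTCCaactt
RPS3, chr11:75399503-75399532, plus strand: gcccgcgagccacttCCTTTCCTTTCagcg
RPL26, chr17:8383179-8383208, minus strand: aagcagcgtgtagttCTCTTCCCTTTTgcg
RPL17, chr18:49492451-49492480, minus strand: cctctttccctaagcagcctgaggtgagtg
RPL13A, chr19:49487593-49487622, plus strand: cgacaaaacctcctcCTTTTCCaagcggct
RPL22, chr1:6199581-6199610, minus strand: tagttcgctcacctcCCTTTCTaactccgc
RPL22L1, chr3:170870181-170870210, minus strand: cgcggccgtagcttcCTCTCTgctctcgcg
RPL26L1, chr5:172958714-172958743, plus strand: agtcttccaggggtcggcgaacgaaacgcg
In RPS26 the tract lies 6 bases inside the annotated start, RPL17 and RPL26L1 have none that begins within 10 bases of it, and the other 12 begin with it.

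RefSeq start windows were found for 65 of the 81 members tested. A tract at an annotated start was present in 47 of them (72.3%), against 749 of the 9838 tested genes with a window (7.61%). Within 10 bases of a start it was present in 58 of the 65 members (89.2%), against 42.4% of tested genes. By direction of change, 11 of 16 members that fell, 5 of 6 that rose and 31 of 43 that did not pass the test had the tract at a start, so the tract was common in all 3 sets. The same run on the opposite strand at the start was present in 0 of the 65. The ETS-type sequence CCGGAAG, searched on both strands from 250 bases before to 50 after the start, was present in 23 of 65 members (35.4%), against 23.3% of tested genes. Among members it was found in 1 of 16 that fell, 3 of 6 that rose and 19 of 43 that did not pass. Its reverse form, CTTCCGG, can overlap the pyrimidine run. The YY1-type sequence GCCATCTT was present in 7 of 65 members (10.8%), against 6.65% of tested genes, and TATAAA in 6 of 65 (9.23%), against 8.29%, both searched in the same window and strands. A gene with several annotated starts was counted as holding a sequence when any of its windows did.

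Values are in TPM, a transcript level corrected for length and scaled so that each library sums to 1000000, so a value is a share of its library. The number of reads behind them is not known. In these bulk samples, fewer cells of a type and less RNA per cell cannot be told apart. Of 8 stellate or myofibroblast markers, 6 fell, VIM rose and DES was at 0 in every library. The hepatocyte markers ALB, APOA1 and TTR were each under 1 TPM throughout. The summed macrophage markers were at 131 to 148 TPM with compound 11 and 81.3 to 84.4 TPM in DMSO, nearly all of it CD68, while CD163, MARCO and PTPRC were under 1 TPM. The 3 endothelial markers summed to 2.79 to 3.42 TPM with compound 11 and 0.66 to 0.942 TPM in DMSO, and the 3 bile duct markers to 2.26 to 4.82 TPM with compound 11 and 3.65 to 7.36 TPM in DMSO. Ribosomal protein genes were the lowest of their group in compound 11 replicate 3 for 65 of the 81 members tested, and the highest of theirs in DMSO replicate 2 for 53. The part of these markers and library differences in the results was not tested; calls that were lost without a library are named with the gene.

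Treatment with compound 11 changed the mRNA of a minority of ribosomal protein genes, and by little. RPS26, RPS2 and RPSA of the small subunit showed the largest falls, 1.51-fold, 1.43-fold and 1.37-fold, and RPL13 of the large subunit the largest rise, 1.23-fold. Of the 81 members tested, 21 fell, 6 rose and 54 did not pass (limma across all genes, Benjamini-Hochberg adjusted p under 0.05). That is 33.3% of members, where 49.6% of the 12067 genes tested passed; 25.9% of members fell and 7.41% rose, against 24.3% and 25.3% of all genes. Log2 fold changes of members ran from -0.60 to 0.30, with 0 members at 2-fold or more, where 5.81% of all genes passed the test with at least that change on the log2(TPM + 1) scale. The median absolute log2 fold change was 0.08 over members and 0.23 over all genes tested.

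The number that rose depended on the scaling. After correction of each library for transcript length and GC content, 24 members rose and 14 fell; under quantile normalization 11 rose and 16 fell; without the 20 most abundant genes, RPLP0 among them, 9 rose and 15 fell; and with upper quartile scaling 3 rose and 24 fell. Without compound 11 replicate 3, 11 rose and 19 fell. The median log2 fold change of members, -0.03 as deposited, was 0.01 under quantile normalization and 0.04 after the length and GC correction, so no direction is given for the family as a whole. Among the 21 that fell, 11 did so under every one of the 17 alternatives, among them RPS26, RPS2, RPSA, RPL35, RPL24, RPL41, RPL12, RPS12, RPS24 and RPL8; among the 6 that rose, RPL13 and RPS3 did.

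The level of the 81 members tested ranged widely, from 15.7 TPM for RPL22L1 to 3966 TPM for RPLP0, with a median of 889 TPM. The median of the within-group coefficient of variation was 4.31% with compound 11 and 3.32% in DMSO. RPL10L was listed at 0 in every library and RPL3L at no more than 0.204 TPM; both are known mainly from testis or muscle, and neither was tested. RPL23A, RPS10 and RPS28 stood at 38.3, 88.5 and 134 TPM, low for proteins that every ribosome needs. Ribosomal protein genes have many processed pseudogenes, and 1145 are named after 77 of the tested members in GENCODE v29, 91 of them after RPL23A. How the authors divided reads between a gene and its copies is not given in the sources used here, so levels of single members, and folds of those with many copies, are uncertain. RPS10 also shares its locus with the readthrough gene RPS10-NUDT3, which was at 2.66 ± 1.79 TPM with compound 11 and 4.93 ± 0.292 TPM in DMSO.

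**Figure D1:**
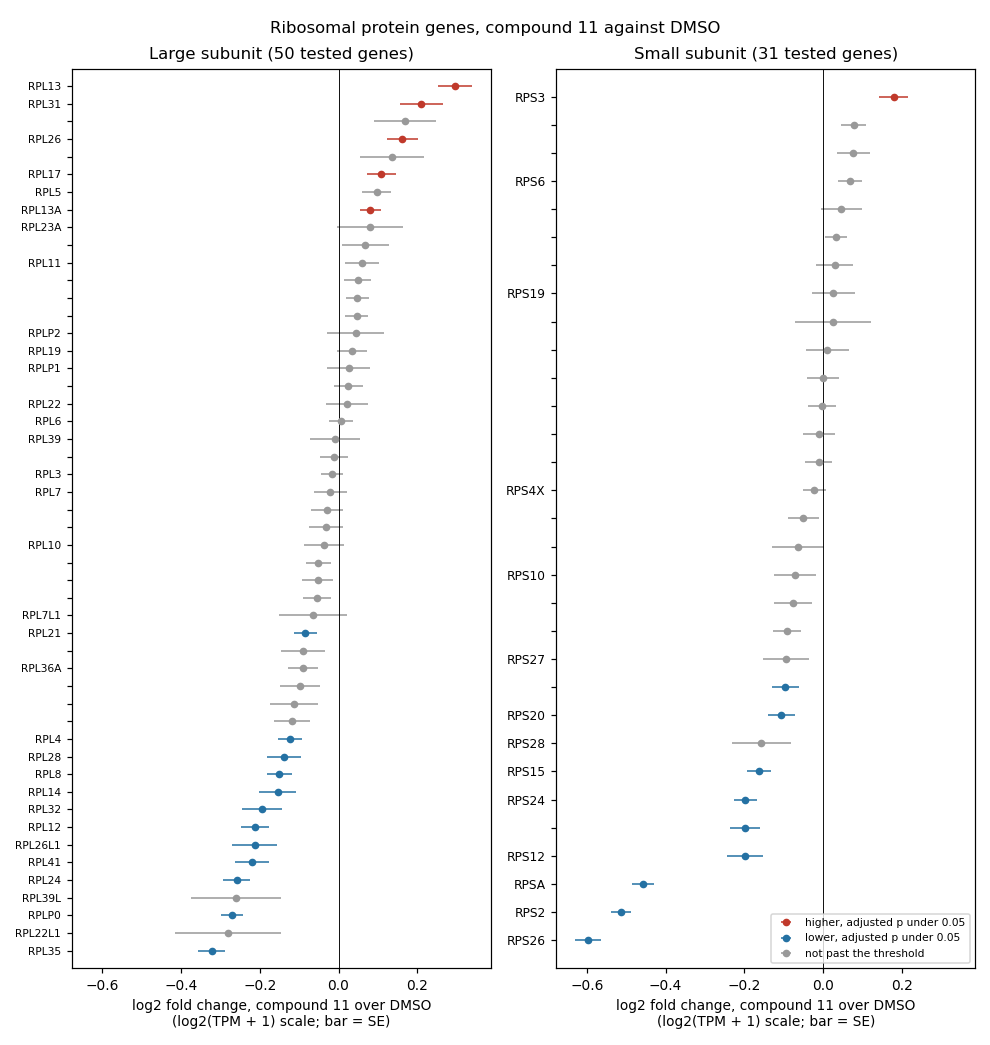
Log2 fold change of each tested ribosomal protein gene (those named in the text are labelled), compound 11 over DMSO, on the log2(TPM + 1) scale with its SE, for the large subunit (left) and the small subunit (right). Colour gives the call at an adjusted p of 0.05; RPS26, RPS2 and RPSA lie apart from the other small subunit genes, and most of the 81 genes lie close to 0.

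In the small subunit, 9 of 31 genes fell and 1 rose, where 24.3% of all genes tested fell and 25.3% rose. The median log2 fold change of the subunit was -0.05, beside -0.00 over all genes tested. That median depended on single libraries and on the scaling, in both directions. It was -0.014 without DMSO replicate 2 and -0.015 without compound 11 replicate 3. Quantile normalization gave 0.0022 and the length and GC correction 0.031. Lower values were -0.0665 without DMSO replicate 1, -0.0758 without compound 11 replicate 2 and -0.089 with upper quartile scaling. RPS26, whose protein lies at the mRNA exit channel, had 458, 456 and 454 TPM in the 3 compound 11 libraries, against 712, 691 and 666 TPM in DMSO. Every compound 11 library was thus below every DMSO library (log2 fold change -0.60 ± 0.03 SE, limma adjusted p = 5.87e-07). RPS26 spans chr12:56041351-56044697 (GRCh38, GENCODE v29), and 30 pseudogenes are named after it. RPS2, a protein of the mRNA entry site, had 2315, 2269 and 2252 TPM with compound 11, against 3280, 3263 and 3223 TPM in DMSO. The groups were far apart beside their spread (log2 fold change -0.51 ± 0.03 SE, limma adjusted p = 2.76e-07); its position is chr16:1962052-1964860. RPSA, a protein of the small subunit that is also known as a laminin receptor, had 1681, 1715 and 1698 TPM with compound 11, against 2389, 2306 and 2301 TPM in DMSO. Again the groups did not overlap (log2 fold change -0.46 ± 0.03 SE, limma adjusted p = 1.02e-06); 74 pseudogenes are named after RPSA (chr3:39406689-39412542). In the ranking of all 12067 tested genes by log2 fold change, these 3 were at the 6.76, 8.92 and 10.9 percentiles from the lowest.

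Next among small subunit genes came RPS12 and RPS24, each with a log2 fold change of -0.20. RPS24, a gene mutated in some cases of Diamond-Blackfan anaemia, had 1463, 1446 and 1420 TPM with compound 11, against 1613, 1658 and 1696 TPM in DMSO, with no overlap. RPS15 and RPS20 fell less, by 1.12-fold and 1.08-fold. RPS15 lost its call after the length and GC correction. The call of RPS20 held under only 9 of the 17 alternatives, and was lost without DMSO replicate 2, DMSO replicate 3 or compound 11 replicate 1 (limma adjusted p = 0.064 to 0.113). RPS3, which lines the mRNA entry channel and is also known outside the ribosome as a DNA repair factor and NF-κB partner, was the small subunit gene that rose. It had 1473, 1543 and 1402 TPM with compound 11, against 1302, 1313 and 1282 TPM in DMSO, without overlap and 1.13-fold higher (log2 fold change 0.18 ± 0.04 SE, limma adjusted p = 0.00288).

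RPS6, the protein that S6 kinases phosphorylate downstream of PI3K and mTOR, was at 1056 ± 6.57 TPM with compound 11 and 1007 ± 29.6 TPM in DMSO (SD, n = 3 each). Its groups did not overlap, but it missed the threshold (log2 fold change 0.07, limma adjusted p = 0.0868); it passed without the 20 most abundant genes (0.10) and after the length and GC correction (0.11). RPS19, another Diamond-Blackfan anaemia gene, was at 921 ± 64.8 TPM with compound 11 and 903 ± 43.5 TPM in DMSO, a difference within the spread of the libraries, although it passed after the length and GC correction (log2 fold change 0.12). RPS4X, the X-linked small subunit gene, overlapped between groups at 832 to 870 TPM and 855 to 877 TPM.

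**Figure D2:**
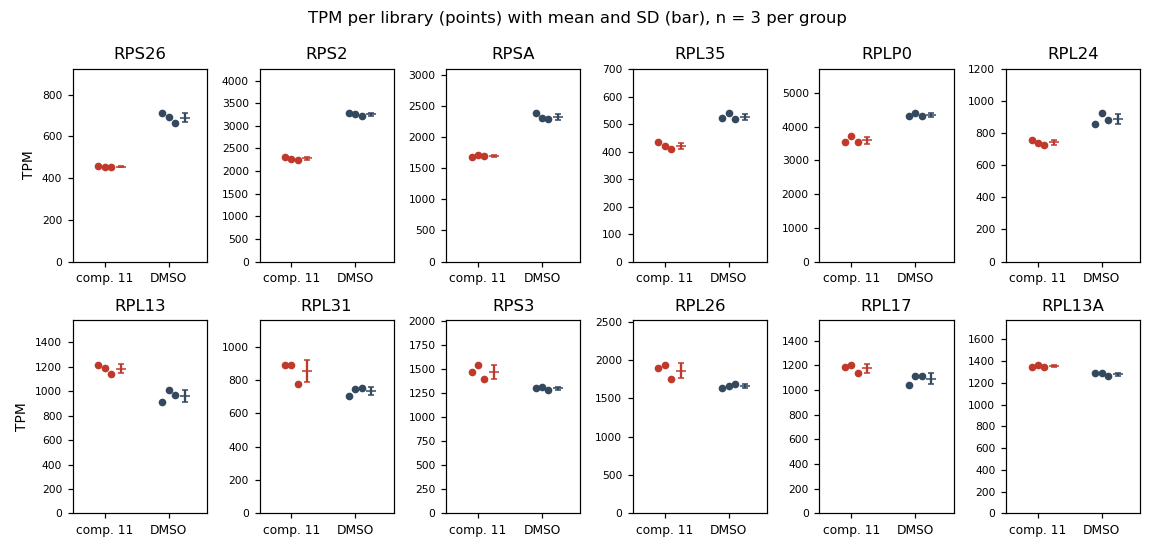
TPM of 12 ribosomal protein genes in each library (points), with mean and SD (bar, n = 3 per group); axes start at 0. The upper row shows genes that fell with compound 11 and the lower row genes that rose, and the groups do not overlap in any panel; RPSA, for example, averaged 1698 TPM with compound 11 and 2332 TPM in DMSO.

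In the large subunit, 12 of 50 genes fell (24.0%) and 5 rose (10.0%), against 24.3% and 25.3% of all genes tested. The median log2 fold change was -0.03. It became 0.011 under quantile normalization, 0.040 after the length and GC correction and -0.0694 with upper quartile scaling. Without single libraries it lay between -0.053 and -0.017, nearest to 0 without DMSO replicate 3 and farthest without compound 11 replicate 2. The groups of libraries did not overlap for 23 of the 50, for 13 of 31 in the small subunit and for 36 of the 81 members (44.4%), where 57.8% of all tested genes did not. Among those that fell, RPL35, a protein at the mouth of the exit tunnel, had 433, 421 and 410 TPM with compound 11, against 522, 540 and 520 TPM in DMSO. All compound 11 libraries were lower (log2 fold change -0.32 ± 0.03 SE, limma adjusted p = 4.59e-05). RPL24, which forms a bridge between the subunits, had 755, 741 and 727 TPM with compound 11, against 859, 924 and 880 TPM in DMSO. It was 1.20-fold lower with no overlap (limma adjusted p = 0.00023). RPL41, at 25 codons the shortest member, had 1801, 1788 and 1624 TPM with compound 11, against 1955, 2074 and 2036 TPM in DMSO. It was 1.16-fold lower, and RPL12, which sits at the base of the stalk, was lower by the same factor.

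The acidic stalk, which recruits elongation factors to the ribosome, is built from RPLP0, RPLP1 and RPLP2, and its genes did not move together. RPLP0, the base of the stalk and the most abundant member, had 3537, 3710 and 3538 TPM with compound 11, against 4312, 4397 and 4302 TPM in DMSO. It fell 1.21-fold (log2 fold change -0.27 ± 0.03 SE, limma adjusted p = 4.63e-05), but under quantile normalization the value was -0.04 and did not pass (limma adjusted p = 0.235). RPLP1 was at 782 ± 63.9 TPM with compound 11 and 767 ± 26.5 TPM in DMSO, and RPLP2 at 305 ± 30.5 TPM with compound 11 and 296 ± 18.9 TPM in DMSO (SD, n = 3 each). For both, the groups overlapped, and neither passed (limma adjusted p = 0.728 for RPLP1 and 0.649 for RPLP2). The difference between RPLP0 and its partners was not itself tested.

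RPL4, a long protein that reaches into the exit tunnel, was at 2013 ± 60.3 TPM with compound 11 and 2192 ± 46.8 TPM in DMSO, 1.09-fold lower without overlap (limma adjusted p = 0.00964); it lost its call when variances were fitted without a trend. The remaining large subunit genes that fell were RPL26L1, RPL32, RPL14, RPL8, RPL28 and RPL21, by 1.06-fold to 1.16-fold. RPL8 held its call under all 17 alternatives, RPL32 under 14, RPL14 under 12, RPL28 under 10 and RPL21 under 8. RPL14 lost it without DMSO replicate 2 (log2 fold change -0.14, limma adjusted p = 0.0682) or DMSO replicate 3 (-0.15, limma adjusted p = 0.0532). RPL28 lost it without DMSO replicate 1 or 2 or compound 11 replicate 3 (limma adjusted p = 0.0587 to 0.0948). RPL21 lost it without any 1 library other than compound 11 replicate 3 (limma adjusted p = 0.068 to 0.12).

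Genes that rose were led by RPL13, a large subunit protein whose gene is mutated in a skeletal dysplasia. RPL13 had 1215, 1192 and 1142 TPM with compound 11, against 912, 1012 and 967 TPM in DMSO, with no overlap (log2 fold change 0.30 ± 0.04 SE, limma adjusted p = 0.000329). Its position is chr16:89560657-89566828. RPL31, at the exit of the tunnel, had 890, 889 and 775 TPM with compound 11, against 706, 746 and 751 TPM in DMSO. The lowest compound 11 library, replicate 3, was close to the highest DMSO library, and RPL31 was 1.16-fold higher (limma adjusted p = 0.0101), a call lost without a variance trend. RPL26, a tunnel exit protein, had 1894, 1935 and 1752 TPM with compound 11, against 1631, 1664 and 1688 TPM in DMSO (1.12-fold higher, limma adjusted p = 0.00689). RPL26 lost its call with upper quartile scaling and without a variance trend. RPL17, at 1175 ± 35.5 TPM with compound 11 and 1090 ± 43.2 TPM in DMSO, shares its locus with the readthrough gene RPL17-C18orf32. RPL13A, which is also part of an interferon-induced translational repressor complex, was at 1353 ± 10.2 TPM with compound 11 and 1280 ± 16.6 TPM in DMSO. RPL17 and RPL13A rose by 1.08-fold and 1.06-fold, and their calls held under 10 and 8 of the 17 alternatives. RPL17 lost its call without DMSO replicate 1 or compound 11 replicate 1 or 2 (limma adjusted p = 0.101 to 0.131), and RPL13A without any 1 library other than compound 11 replicate 3 (limma adjusted p = 0.0559 to 0.108).

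RPL5 and RPL11 enter the large subunit together with its small ribosomal RNA, and when free both bind the ubiquitin ligase MDM2. RPL5 had 944, 995 and 958 TPM with compound 11, against 866, 932 and 912 TPM in DMSO. The groups did not overlap, but RPL5 missed the threshold (log2 fold change 0.10 ± 0.04 SE, limma adjusted p = 0.0515); it passed with 6 of the 17 alternatives, with values of 0.10 to 0.16. RPL11 was at 997 ± 62.4 TPM with compound 11 and 956 ± 8.44 TPM in DMSO (log2 fold change 0.06, limma adjusted p = 0.288). It passed only without compound 11 replicate 3 (0.11) and after the length and GC correction (0.13).

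RPL19 and RPL6 were, with RPLP0, RPS2, RPL4 and RPSA, the 6 most abundant members, and neither of them passed the test. RPL19 was at 2228 ± 110 TPM with compound 11 and 2174 ± 52.5 TPM in DMSO, RPL6 at 2051 ± 38.8 TPM with compound 11 and 2042 ± 58.2 TPM in DMSO. Both differences lay within the spread of the libraries, although RPL19 passed after the length and GC correction (log2 fold change 0.12). RPL10, a large subunit protein added late in assembly, was at 1907 ± 146 TPM with compound 11 and 1952 ± 38.3 TPM in DMSO, and the groups overlapped.

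Summed over all members, ribosomal protein mRNA made up 8.01% ± 0.250 of the library total with compound 11 and 8.39% ± 0.140 in DMSO (SD, n = 3 each). The difference of the sums, -3788 TPM, was -2375 TPM without compound 11 replicate 3 and -1540 TPM without the 20 most abundant genes, and turned to 311 TPM after the length and GC correction. The large subunit sum was 51860, 52537 and 49456 TPM with compound 11, against 51857, 53652 and 52541 TPM in DMSO, and the groups overlapped. The small subunit sum was 29173, 29497 and 27838 TPM with compound 11, against 30907, 31816 and 30955 TPM in DMSO, and the groups did not overlap. RPS26, RPS2 and RPSA together accounted for 4433 ± 25.2 TPM with compound 11 and 6277 ± 96.4 TPM in DMSO (a difference of -1845 TPM, where that of the whole small subunit sum was -2390 TPM). The ratio of the large to the small sum was 1.78, 1.78 and 1.78 with compound 11, against 1.68, 1.69 and 1.70 in DMSO. Without those 3 genes, which were chosen after their values were seen, the ratio was 2.10, 2.10 and 2.11 with compound 11, against 2.11, 2.10 and 2.12 in DMSO, and the groups overlapped. These sums are descriptions and carry no test.

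**Figure D3:**
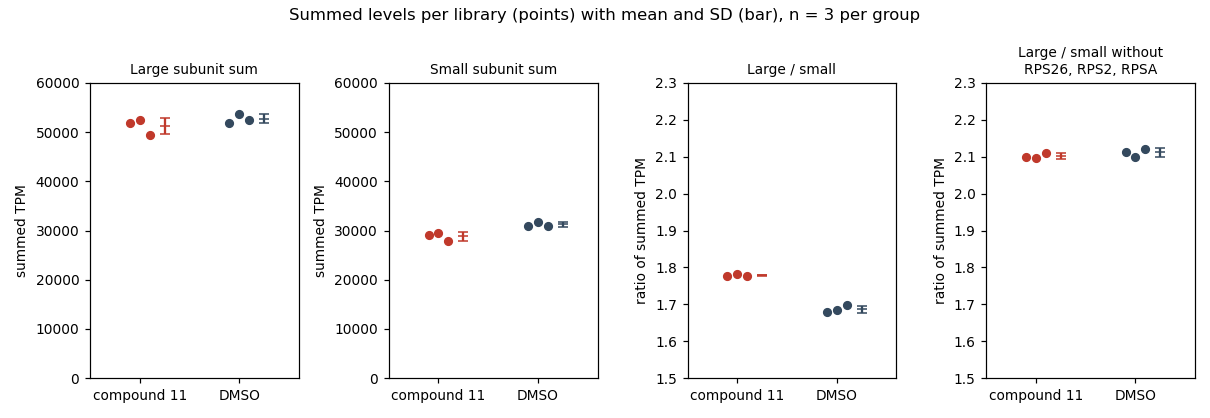
Summed TPM of large and small subunit genes in each library (left pair of panels, axes from 0) and the ratio of the sums with all genes and without RPS26, RPS2 and RPSA (right pair, axes that do not start at 0); points are libraries and bars mean and SD, n = 3 per group. The ratio separates the groups, at 1.78 with compound 11 and 1.69 in DMSO, and overlaps between them once the 3 genes are left out.

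Paralogs were compared within each library as the log2 ratio of the paralog to the canonical gene, both with 1 TPM added, over 6 pairs that passed the filter. RPL36AL and RPS27L, the paralogs of RPL36A and RPS27, are outside the rule and were added for this comparison. An exact two-sided permutation test of 3 against 3 libraries cannot go below p = 0.1, and over the 6 pairs the smallest adjusted p was 0.15, so no pair could pass 0.05 in this design.

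RPL26L1, which differs little from RPL26 in its protein, had log2 ratios of -3.64, -3.61 and -3.64 with compound 11, against -3.29, -3.28 and -3.19 in DMSO. The groups did not overlap (difference -0.38 ± 0.03 SE, exact permutation p = 0.1, adjusted p = 0.15). Here both genes had moved: RPL26L1 fell to 149 ± 9.30 TPM with compound 11, against 173 ± 9.46 TPM in DMSO (limma adjusted p = 0.0118), while RPL26 rose. The call of RPL26L1 was lost under quantile normalization and after the length and GC correction. RPL26L1 made up 7.44% ± 0.0891 of the pair with compound 11 and 9.45% ± 0.335 in DMSO (SD, n = 3 each).

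RPL39L, a paralog of the exit tunnel protein RPL39 known from testis and some tumours, had 23.0, 24.8 and 17.6 TPM with compound 11, against 24.7, 26.8 and 26.8 TPM in DMSO. Its ratio to RPL39 did not overlap between groups (-5.31 ± 0.17 with compound 11 and -5.06 ± 0.07 in DMSO, SD, n = 3 each; exact permutation p = 0.1, adjusted p = 0.15). Without compound 11 replicate 3 the difference of the ratios, -0.25, was -0.15. The levels of the gene itself overlapped and it did not pass (limma adjusted p = 0.089), but did without compound 11 replicate 2 (log2 fold change -0.36). RPL22L1, whose level RPL22 is known to hold down, had 11.0, 15.6 and 15.9 TPM with compound 11, against 16.1, 18.7 and 17.0 TPM in DMSO, without overlap, and did not pass (limma adjusted p = 0.112). The ratio to RPL22 overlapped between groups, at -5.45, -4.87 and -4.72 with compound 11, against -4.77, -4.63 and -4.73 in DMSO (exact permutation p = 0.3, adjusted p = 0.36), and the low value is that of compound 11 replicate 1, without which the difference of -0.30 was -0.085. RPL22 itself was at 484 ± 39.0 TPM with compound 11 and 476 ± 9.54 TPM in DMSO; it passed only under quantile normalization (log2 fold change 0.16). RPL7L1, a homologue of RPL7 known from ribosome assembly, held 14.2% ± 0.910 of its pair with compound 11 and 14.6% ± 1.49 in DMSO, and the ratios overlapped (exact permutation p = 0.6, adjusted p = 0.6).

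In the pairs whose paralog lies outside the rule, the ratio was higher in every compound 11 library than in any DMSO library. RPL36AL, an expressed copy of RPL36A, was at 269 ± 7.83 TPM with compound 11 and 234 ± 1.39 TPM in DMSO (limma adjusted p = 0.00118). Its log2 ratio to RPL36A was -1.29 ± 0.05 with compound 11 and -1.58 ± 0.06 in DMSO (SD, n = 3 each), and the groups did not overlap (difference 0.29 ± 0.04 SE, exact permutation p = 0.1, adjusted p = 0.15). RPL36A missed the threshold (log2 fold change -0.09, limma adjusted p = 0.0723) and passed with upper quartile scaling and without DMSO replicate 3. RPS27L was at 120 ± 12.2 TPM with compound 11 and 99.4 ± 14.3 TPM in DMSO and did not pass (limma adjusted p = 0.0532). Its log2 ratio to RPS27 was -2.74 ± 0.07 with compound 11 and -3.11 ± 0.13 in DMSO, without overlap (exact permutation p = 0.1, adjusted p = 0.15); the difference of 0.37 was 0.22 after the length and GC correction. Since paralogs can share reads with each other and with pseudogenes, these ratios rest on the authors' division of reads.

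**Figure D4:**
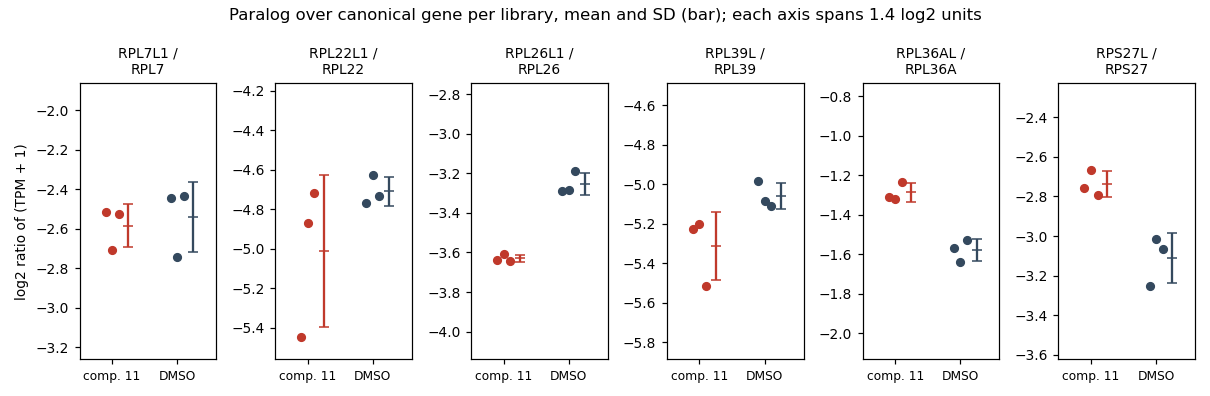
Log2 ratio of each paralog to its canonical gene, with 1 TPM added to each, per library (points) and as mean and SD (bar, n = 3 per group); every axis spans the same length. Ratios of RPL26L1 and RPL39L lie lower with compound 11, those of RPL36AL and RPS27L higher, and those of RPL7L1 and RPL22L1 overlap.

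Other mRNAs known to carry a TOP tract went both ways, as all genes tested did. RefSeq start windows were found for 15 of these 22 genes, and 12 of the 15 had the tract at a start. Of 22 tested, 8 rose (36.4%) and 5 fell (22.7%), against 25.3% and 24.3% of all genes tested. Their median log2 fold change was 0.02. TPT1, the translationally controlled tumour protein, rose to 3201 ± 135 TPM with compound 11, against 1963 ± 53.6 TPM in DMSO (limma adjusted p = 3.96e-07), a larger change than that of any ribosomal protein gene. HNRNPA1, an RNA-binding protein, fell to 1660 ± 51.1 TPM with compound 11, against 2196 ± 51.1 TPM in DMSO. EEF1A1, the elongation factor that delivers aminoacyl-tRNA, and VIM, the intermediate filament vimentin, rose with log2 fold changes of 0.22 and 0.23. RACK1, a scaffold on the small subunit, rose to 2033 ± 36.5 TPM with compound 11, against 1796 ± 40.3 TPM in DMSO. FAU, which encodes a small subunit protein fused to a ubiquitin-like one, fell to 623 ± 25.1 TPM with compound 11, against 729 ± 49.1 TPM in DMSO.

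Among 15 tested genes of translational and TOP control, 3 rose and 3 fell. Both shares were below those of all genes tested, of which 25.3% rose and 24.3% fell. PDCD4, an inhibitor of the helicase eIF4A, rose to 84.5 ± 10.3 TPM with compound 11, against 41.0 ± 2.03 TPM in DMSO, and MAF1, a repressor of RNA polymerase III, to 146 ± 6.85 TPM with compound 11, against 116 ± 6.54 TPM in DMSO. RPS6KB2, an S6 kinase, and EIF4E, the cap-binding protein, fell (log2 fold changes -0.24 and -0.29). LARP1 was at 162 ± 17.9 TPM with compound 11 and 181 ± 4.59 TPM in DMSO and did not pass (limma adjusted p = 0.0862). These are mRNA levels and do not measure translation of TOP mRNAs or phosphorylation.

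Of 22 tested genes of ribosome assembly and surveillance, 3 rose (13.6%) and 7 fell (31.8%), against 25.3% and 24.3% of all genes tested. EFL1, the GTPase that releases eIF6 from new large subunits, rose to 49.9 ± 3.02 TPM with compound 11, against 23.7 ± 0.613 TPM in DMSO. EIF6 itself, which keeps new large subunits from joining small ones, fell to 239 ± 8.55 TPM with compound 11, against 308 ± 6.59 TPM in DMSO. RIOK1, a kinase of late small subunit maturation, and GRWD1, the chaperone of RPL3, fell (log2 fold changes -0.46 and -0.24). RPL3 was at 1557 ± 24.4 TPM with compound 11 and 1574 ± 21.0 TPM in DMSO.

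Set beside other large complexes, mitochondrial ribosomal proteins had 26 lower (33.3%) and 7 higher (8.97%) of 78 tested, with a median log2 fold change of -0.07. Proteasome subunits had 19 lower (51.4%) and 3 higher (8.11%) of 37, with a median of -0.12. Of all genes tested, 24.3% were lower and 25.3% higher. The interquartile range of log2 fold changes ran from -0.12 to 0.03 for cytosolic ribosomal proteins, from -0.22 to 0.04 for mitochondrial ones and from -0.22 to 0.24 for all genes tested. Members have larger levels and smaller SEs than most genes (median SE 0.04, against 0.08 over all genes tested). Across the 81 members, log2 fold change went little with mean level, coding length, transcript length, GC content or number of pseudogenes (Spearman's rho 0.10, 0.09, 0.12, -0.19 and 0.18, over genes that share the same 6 libraries).

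**Figure D5:**
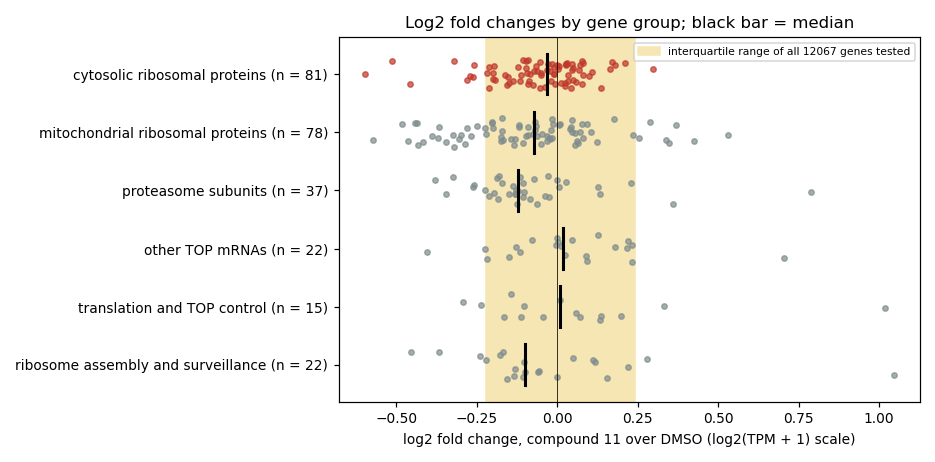
Log2 fold change, compound 11 over DMSO, of each tested gene in 6 groups (points, spread vertically at random), with the median (black bar) and the interquartile range of all 12067 tested genes (shaded). Cytosolic ribosomal proteins lie between -0.60 and 0.30, with a median of -0.03.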

How the data were processed

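TRIzol extraction and an Illumina TruSeq kit are given in the labels' protocols. Bowtie 0.12.2 and the builds mm8 (mouse) and GRCh38.p12 appear in the submitters' processing notes with no role; for counting, annotation and strand the sources used here give nothing. The deposited values are headed FPKM, but every column sums to 1000000, so they are TPM per gene scaled by the authors.

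With 1 TPM added, log2 levels of the 12067 genes that reached 1 TPM in 3 or more libraries were tested together by limma 3.58.1 in R 4.3.3 (model on group, variances with a mean trend, two-sided, Benjamini-Hochberg adjustment, threshold 0.05). Folds without log2 are ratios of mean TPM. The pipeline was tested on simulated data with planted changes larger than those of all tested members except RPS26, and with noise independent between genes. That simulation does not cover changes as small as most of those described here. Paralog ratios were tested by exact permutation over libraries. Transcript length, GC content and gene positions come from GENCODE v29 (GRCh38).

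The members and lists were chosen with earlier results of these data known. Genes named are the 8 highest and 8 lowest called members, the 6 most abundant, paralog pairs, the stalk, RPL5, RPL11, RPS6 and RPS19, and up to 4 genes of each other list, by adjusted p; further genes named were chosen after their values were seen. Alternatives were other pseudocounts (0.1 and 0.01), filters and scalings, no variance trend, a replicate block, a length and GC correction, and each library left out. Values of some genes are not reported here one by one, though they stand in the counts and sums.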

Additional observations from a re-analysis of the deposited data

How the results depend on the processing

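Depth is unknown, replicates number 3 and division of reads among copies is not known, so small differences can be missed. Beside 6 members higher and 21 lower, upper quartile scaling gave 3 higher, quantile normalization 11, no variance trend 2 and the length and GC correction 24; without single libraries 4 to 11 were higher and 16 to 21 lower. The median log2 fold change became 0.040 in the large and 0.031 in the small subunit after the length and GC correction. The summed level, which differed by -3788 TPM (compound 11 minus DMSO), differed by -5986 TPM with upper quartile scaling, -1540 TPM without the 20 most abundant genes and 311 TPM after the length and GC correction. The cause of these shifts was not tested. Without single libraries the sum differed by -4745 to -2375 TPM. The other alternatives left these counts within 1.5 times.

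Same-numbered libraries share only a number: deviations from the group means correlated at 0.08, 0.15 and 0.07 across genes, and every library correlated best with its own number, a hint from the data and not the design. With the replicate block 9 members were higher and 23 lower.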
